A study of Marchantia polymorpha and Arabidopsis thaliana and Oryza sativa Japonica Group with 80 samples.

Results

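The comparison described here sets Arabidopsis thaliana seedlings of a line labelled wrky25/33 after 24 h in salt against seedlings of the same line at 0 h. Its members were chosen by their labels: 3 libraries at 24 h and 3 at 0 h, 6 of the 80 samples of the series and 6 of the 18 libraries of the experiment they belong to. The 24 h group is 7-day-old seedlings of the labelled wrky25/33 knockout line, grown in liquid MS medium under continuous light and held in 100 mM NaCl for 24 h, which the deposited condition sheet calls Salt. The 0 h group is the same line and age, grown the same way, which the sheet calls Control. Col-0, the standard wild-type strain, was sampled in the same experiment at 24 h and 0 h, and both lines also at 2 h, with 3 libraries in each group. The labels do not give the alleles of the knockout or how many seedlings went into a library, and the series text calls the replicates biological without saying how each was grown, so p-values measure the spread between these libraries. No untreated library at 24 h was used here, so salt, time, handling and growth cannot be told apart. RNA came from whole seedlings, in which fewer cells of a type and less RNA per cell cannot be told apart.

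Salt reaches a seedling first as a shortage of water and then as sodium in its cells. The hormone abscisic acid (ABA) is made when water is short. Its receptors then bind and block clade A PP2C phosphatases, which frees SnRK2 kinases to switch on genes for protective proteins such as dehydrins and for compatible solutes such as proline. WRKY25 and WRKY33 are DNA-binding transcription factors of a large plant family, known from Arabidopsis for roles in salt, heat and pathogen responses. WRKY18, WRKY40 and WRKY60 form a related trio that acts in ABA and pathogen responses.

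The 6 libraries held 17431071 to 38232487 counted reads, and 4.13% to 5.83% of reads were unmapped. The 100 most abundant genes took 24.3% to 26.6% of counted reads at 24 h and 19.7% to 23.1% at 0 h, and the TMM scaling factors were 0.859 to 0.918 at 24 h and 1.03 to 1.12 at 0 h. Along the third principal component of all 18 libraries replicate 3 lay highest in all 6 groups of the experiment. In the labelled line it stood at 37.5 at 24 h, against -9.19 and -0.68 for replicates 1 and 2, and at 54.3 at 0 h, against -13.8 and -9.29. Replicate 2 of Col-0 at 24 h stood apart along the first component, at 13.8 against 98.3 and 88.4. The labelled line's replicate 2 at 24 h stood lower too, at 48.3 against 84.4 and 63.0. Counts are given below also without single libraries and without each replicate number where that moves them.

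The transcripts named by the line's label were present in it. Levels are counts scaled to a common library size by TMM (CPM), in the order of replicates 1, 2 and 3. WRKY25 (AT2G30250) had 92.0, 67.4 and 124 CPM at 24 h, against 44.5, 33.2 and 42.0 CPM at 0 h. Every 24 h library lay above every 0 h library, and the gene rose by a log2 fold change of 1.20 ± 0.19 (SE; edgeR adjusted p = 0.000398). WRKY33 (AT2G38470) had 30.1, 20.2 and 47.9 CPM at 24 h, against 44.5, 30.7 and 164 CPM at 0 h. Its groups overlapped and it was not called (log2 fold change -1.01 ± 0.47, edgeR adjusted p = 0.109). Set against Col-0, WRKY25 differed by 0.13 at 24 h and by 0.19 at 0 h on the log2 scale, and WRKY33 by 0.09 and 0.01, and edgeR called none of these 4 differences. Protein was not measured, and the line is called the labelled wrky25/33 line here.

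A different trio of WRKY genes, picked after its values were seen, was among the genes that differed between the labelled line and Col-0 at 24 h. WRKY60 (AT2G25000) had 0, 0.115 and 0.146 CPM at 24 h in the labelled line, which is 5 reads in all, against 14.9, 33.8 and 16.5 CPM in Col-0 at 24 h (log2 difference -8.03 ± 0.43, edgeR adjusted p = 4.37e-07). At 0 h it had no read in the labelled line, against 24.0, 34.5 and 17.6 CPM in Col-0. WRKY18 (AT4G31800) had 4.45, 5.63 and 5.82 CPM at 24 h in the labelled line, against 40.8, 42.1 and 37.1 CPM in Col-0 (-2.95 ± 0.29, edgeR adjusted p = 0.000104). All libraries of the labelled line lay below all of Col-0 for both genes at both times. WRKY40 (AT1G80840) went the other way at 24 h, with 387, 195 and 163 CPM in the labelled line against 10.9, 5.24 and 11.7 CPM in Col-0 (4.81 ± 0.85, edgeR adjusted p = 0.0218). At 0 h WRKY40 had 188, 152 and 106 CPM in the labelled line against 9.28, 5.11 and 91.1 CPM in Col-0, with no overlap but no call (2.35 ± 0.80, edgeR adjusted p = 1). At 24 h these 3 genes are among few: edgeR called 57 of 19316 genes different between the lines (0.295%). At 0 h edgeR called 45 (0.233%), and WRKY40 was not among them. The differences between the lines at 1 time were not refitted under the alternatives used for the change from 0 h to 24 h.

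**Figure D1:**
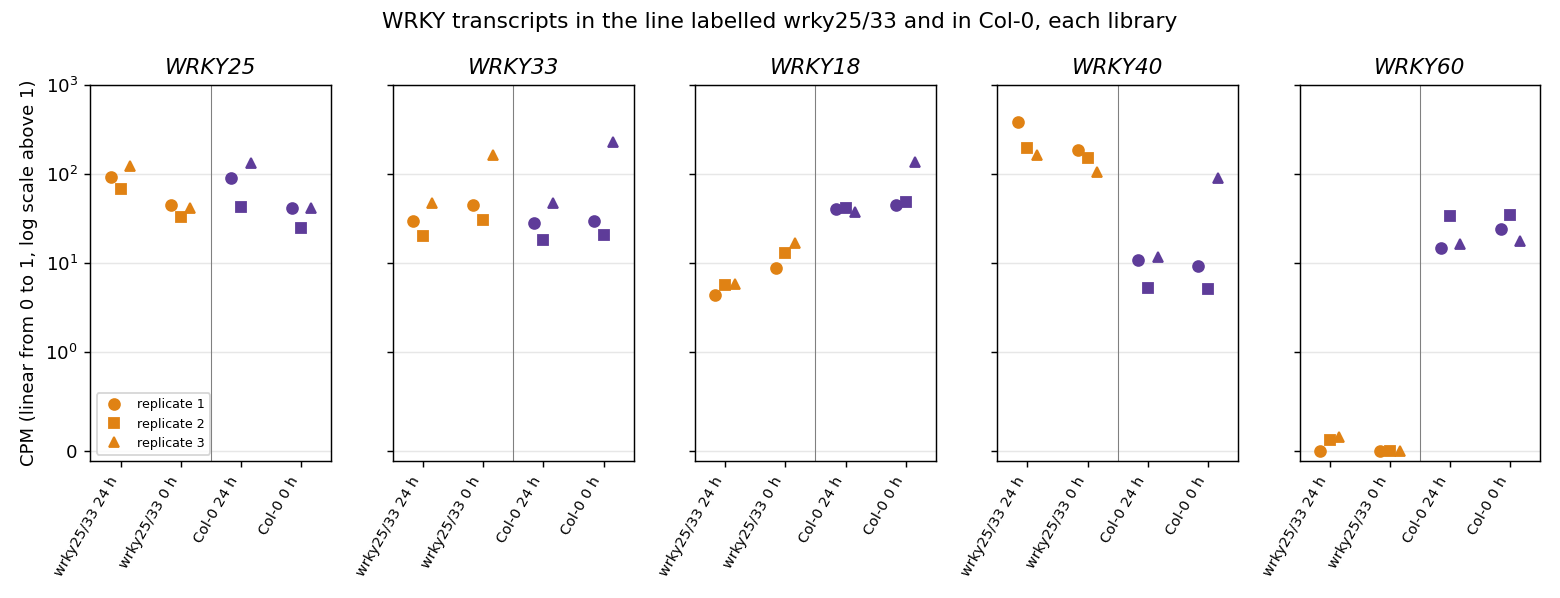
Level in CPM of WRKY25, WRKY33, WRKY18, WRKY40 and WRKY60 in each library of the labelled wrky25/33 line at 24 h and 0 h and of Col-0 at 24 h and 0 h; the vertical axis is linear from 0 to 1 and logarithmic above 1. WRKY25 and WRKY33 lie at like levels in both lines, WRKY60 lies at or near 0 in the labelled line only, and WRKY40 lies at 106 CPM or more in all 6 labelled libraries shown.

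Across the genome, 24 h in salt went with change in more than 1 gene in 3. Of 19316 genes tested, edgeR called 7021 (36.3%) at an adjusted p below 0.05, of which 3563 (18.4%) rose and 3458 (17.9%) fell, and the median over all genes was -0.03 on the log2 scale. The changes were mostly modest: the median log2 fold change was 0.75 among genes that rose and -0.95 among genes that fell, with 1217 and 1631 past a 2-fold change and 128 and 113 past an 8-fold change. Groups that did not overlap were found in 7739 genes (40.1%), and 5934 genes (30.7%) were both called and free of overlap. Without the replicate number as a block, 1942 genes rose and 1629 fell. Without 0 h replicate 3, 2473 rose and 2155 fell, without all libraries numbered 1, 1958 and 1498, and without all libraries numbered 3, 2101 and 1710. A gene written below as having risen or fallen kept its call without the block, in both strand columns, with DESeq2 and without each library or replicate number, wherever it was tested, unless a lost call is named beside it.

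Of 541 tested genes in 39 lists, 150 rose, 114 fell and 277 did neither, with a median of 0.10, and the lists differed in how their members were divided. Among lists with at least 5 genes tested, starvation markers, PP2C phosphatases, xylem markers, glutathione transferases and aquaporins held the highest shares of genes that rose, and wax, cell cycle and flavonoid genes the highest shares that fell. Over all genes tested 18.4% rose and 17.9% fell, and every list count below is to be read beside these shares. A list near both shares, such as the auxin genes (20% and 20%), shows nothing particular to its genes.

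**Figure D2:**
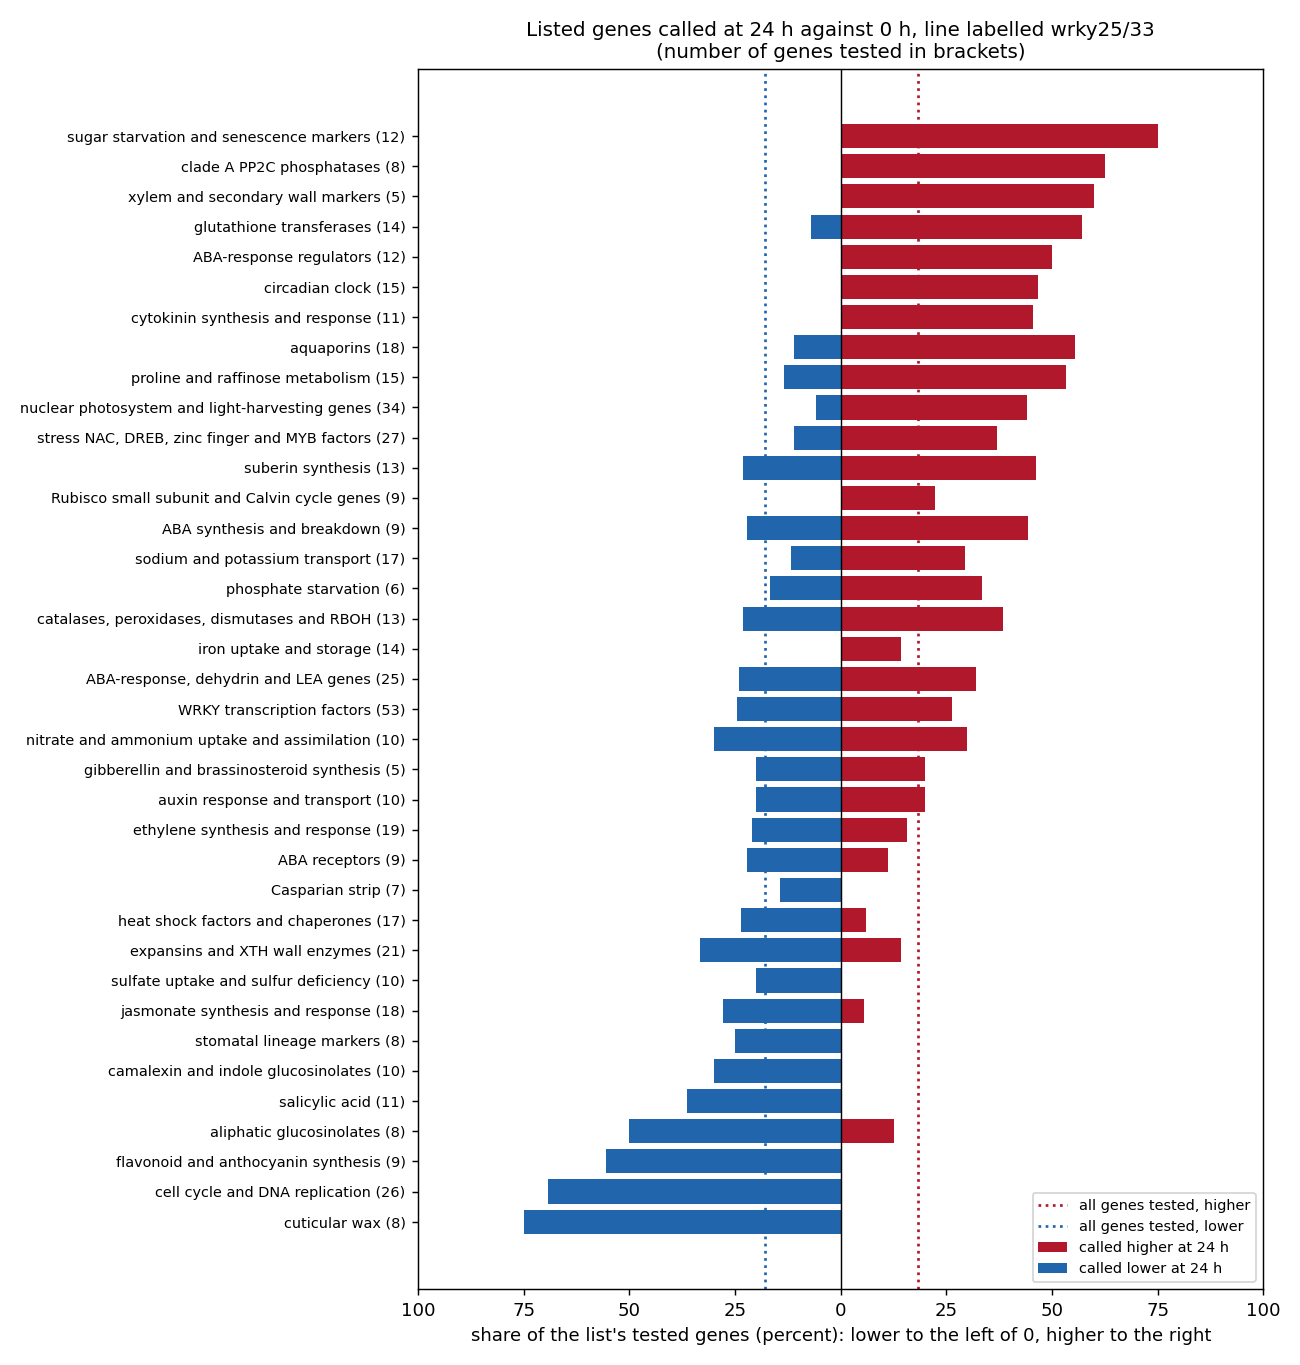
Share of the tested genes of each list with at least 5 tested that edgeR called higher (right of 0) or lower (left of 0) at 24 h than at 0 h in the labelled line, in percent; dotted lines mark the shares over all genes tested, 18.4% higher and 17.9% lower. Starvation and senescence markers (9 of 12 higher) and cuticular wax genes (6 of 8 lower) stand at the ends.

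Genes that plants switch on when sugar runs short were mostly higher after 24 h. Of 12 tested starvation and senescence markers 9 rose and none fell, with a median of 1.48, and 8 to 11 rose under every alternative tried. DIN2 (AT3G60140), a dark-inducible beta-glucosidase, had 480, 203 and 285 CPM at 24 h, against 15.1, 4.70 and 9.59 CPM at 0 h. ASN1 (AT3G47340), an asparagine synthetase that stores nitrogen when carbon is scarce, had 1749, 1168 and 1880 CPM at 24 h, against 244, 35.8 and 110 CPM at 0 h. In both genes the lowest 24 h library lay several-fold above the highest 0 h library, and they rose by 5.21 ± 0.60 and 4.01 ± 0.45 (edgeR adjusted p = 4.54e-05 and 4.12e-05). DIN1 (AT4G35770), a chloroplast-targeted protein used as a marker of darkness and senescence, had 3606, 1462 and 2102 CPM at 24 h, against 332, 94.4 and 222 CPM at 0 h (3.56 ± 0.55, edgeR adjusted p = 0.000306). SAG13 (AT2G29350), a short-chain dehydrogenase and early senescence marker, had 80.8, 26.8 and 109 CPM at 24 h, against 9.84, 3.29 and 5.20 CPM at 0 h (3.49 ± 0.47, edgeR adjusted p = 0.000127).

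The same list holds genes that take apart branched-chain amino acids and chlorophyll. DIN4 (AT3G13450) and DIN3 (AT3G06850), subunits of the branched-chain keto acid dehydrogenase, rose by 2.33 ± 0.29 and 1.75 ± 0.28. PAO (AT3G44880), the oxygenase that opens the chlorophyll ring, had 164, 111 and 171 CPM at 24 h, against 72.2, 63.5 and 56.5 CPM at 0 h, and rose by 1.20 ± 0.17 (edgeR adjusted p = 0.000201). NYE1 (AT4G22920) and NYC1 (AT4G13250), which act earlier in chlorophyll breakdown, rose by 1.01 ± 0.25 and 0.93 ± 0.21, and neither call held without all libraries numbered 3, nor that of NYE1 without those numbered 1. SAG21, SAG29 and TPS8 were the 3 tested members that edgeR did not call. From the list of stress factors, ORE1 (AT5G39610), a NAC factor that promotes leaf senescence, had 64.1, 51.2 and 49.1 CPM at 24 h, against 26.7, 7.50 and 5.07 CPM at 0 h (2.36 ± 0.42, edgeR adjusted p = 0.00071). ATAF1 (AT1G01720), another NAC factor, rose by 1.34 ± 0.25.

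Genes that make proline and genes that break it down were both higher at 24 h. Of 15 tested proline and raffinose genes 8 rose and 2 fell, with a median of 0.52. P5CS1 (AT2G39800), the rate-limiting enzyme of proline synthesis under stress, had 81.1, 64.6 and 136 CPM at 24 h, against 12.9, 12.2 and 15.9 CPM at 0 h. All 24 h libraries lay far above those at 0 h, and it rose by 2.72 ± 0.23 (edgeR adjusted p = 7.85e-06). Its paralog P5CS2 (AT3G55610) had 565, 325 and 456 CPM at 24 h, against 197, 138 and 147 CPM at 0 h (1.46 ± 0.22, edgeR adjusted p = 0.000252). PRODH1 (AT3G30775), the first enzyme of proline breakdown, had 1786, 1465 and 1633 CPM at 24 h, against 871, 369 and 706 CPM at 0 h, and rose by 1.45 ± 0.25, a call lost without the block. Its change after 2 h, against the same 0 h libraries, was -2.39. PROT3 (AT2G36590), a proline transporter, fell by 1.58 on the log2 scale (SE 0.30), to 25.1, 16.8 and 33.4 CPM at 24 h against 68.9, 77.1 and 72.2 CPM at 0 h. SIP2 (AT3G57520) and DIN10 (AT5G20250), of the raffinose synthase and alkaline alpha-galactosidase family, rose by 1.30 ± 0.28 and 1.09 ± 0.24. Both calls were lost without the block, that of SIP2 without all libraries numbered 3 and that of DIN10 without those numbered 2. Of the 8 rises in the list, 2 remained in number without the block, 5 without 0 h replicate 3, 5 without 24 h replicate 2, 5 without 24 h replicate 3 and 4 without all libraries numbered 3, and the 2 falls became 1 without the block or without all libraries numbered 2. RS5 (AT5G40390), a raffinose synthase, was the second fall, at -1.47 ± 0.36, a call lost in 2 alternatives.

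Transcripts of ABA pathway genes moved in both directions, and those of the clade A PP2C phosphatases, which hold the kinases back, lay higher. The activity of the pathway was not measured. All 8 tested clade A PP2C genes had 24 h libraries wholly above those at 0 h, beside 19.9% of all genes, and 5 rose, with a median of 1.58. ABI2 (AT5G57050) had 3.63, 4.02 and 5.48 CPM at 24 h, against 0.839, 1.58 and 1.66 CPM at 0 h (1.77 ± 0.42, edgeR adjusted p = 0.00477), and HAB1 (AT1G72770) had 271, 215 and 256 CPM at 24 h, against 178, 67.8 and 59.9 CPM at 0 h (1.39 ± 0.34, edgeR adjusted p = 0.00601). The call of ABI2 was lost without the block and that of HAB1 without all libraries numbered 2. HAI1 (AT5G59220) was called at 2.06 ± 0.70 (edgeR adjusted p = 0.0322) and lost its call in 7 alternatives, and HAI2 and HAI3, at under 1 CPM, lost theirs in 9 and 11. ABI1, HAB2 and PP2CA lay at 0.49, 0.42 and 0.96 and were not called. The 5 calls became 1 without the block, 3 in 1 strand column, 3 without 0 h replicate 2, 2 without 0 h replicate 3, 2 without 24 h replicate 1, 3 without 24 h replicate 2, and 2 without all libraries numbered 2 or 3.

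Among kinases and factors that act below the phosphatases, 6 of 12 tested genes rose and none fell, with a median of 0.53. ABI5 (AT2G36270), a bZIP factor of ABA-regulated genes, had 8.62, 4.94 and 5.58 CPM at 24 h, against 2.24, 1.80 and 2.40 CPM at 0 h (1.61 ± 0.31, edgeR adjusted p = 0.00127). OST1 (AT4G33950), an SnRK2 kinase, averaged 30.8 ± 3.0 CPM at 24 h and 18.8 ± 1.5 CPM at 0 h (SD, n = 3 each), a log2 fold change of 0.70 ± 0.13. HB7 (AT2G46680), a homeodomain factor of ABA and drought response, rose by 1.26 ± 0.29, and its close relative HB12 (AT3G61890) was called at 1.41 ± 0.41, lost in 3 alternatives. Each of these 4 genes had 24 h libraries wholly above the 0 h libraries, a condition by which they were chosen. They were the only 4 of the 12 tested to do so, beside 19.9% of all genes. Among the receptors PYR1 (AT4G17870) fell, to 42.3, 43.9 and 34.4 CPM at 24 h against 80.1, 69.6 and 85.0 CPM at 0 h (-0.98 ± 0.21, edgeR adjusted p = 0.00231). PYL7 (AT4G01026) rose, with 6.89, 6.20 and 7.23 CPM at 24 h against 3.80, 2.72 and 3.44 CPM at 0 h (1.04 ± 0.21, edgeR adjusted p = 0.00197). The other 7 tested receptors held 1 further call, PYL6 at -1.21 ± 0.43, which was lost in 9 alternatives. The 9 tested receptors had a median of 0.00. Their shares called higher (11.1%) and lower (22.2%) were not far from those of all genes (18.4% and 17.9%).

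Both arms of ABA turnover held called genes, with 4 of 9 tested higher, 2 lower and a median of 0.61. CYP707A3 (AT5G45340), an ABA 8'-hydroxylase that breaks the hormone down, had 2.41, 2.01 and 2.67 CPM at 24 h, against 6.32, 14.6 and 49.2 CPM at 0 h (-2.77 ± 0.52, edgeR adjusted p = 0.00104). Another such hydroxylase, CYP707A1 (AT4G19230), went up instead, with 15.1, 3.44 and 7.57 CPM at 24 h against 1.57, 1.84 and 1.82 CPM at 0 h (2.26 ± 0.56, edgeR adjusted p = 0.00612; call lost without all libraries numbered 3). Its relative CYP707A4 (AT3G19270) was called at 1.46 ± 0.41 and ABA3 (AT1G16540), which activates the last enzyme of ABA synthesis, at 0.65 ± 0.15, lost in 4 and 2 alternatives. NCED3 (AT3G14440), the synthesis enzyme that stress induces first, had 0.0914, 0 and 0.437 CPM at 24 h, against 0.280, 0.176 and 0.975 CPM at 0 h. Its groups overlapped and edgeR did not call it (-1.33 ± 0.59, adjusted p = 0.0919). Of the 4 rises in the list, 1 remained in number without all libraries numbered 1 and none without those numbered 3, and the 2 falls became 1 without the block and without any single library but 0 h replicate 3.

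Dehydrin, LEA and other ABA-response genes, which make proteins that protect drying cells, were divided after 24 h. Of 25 tested 8 rose, 6 fell and 11 did neither, with a median of 0.45. RD20 (AT2G33380), a caleosin of lipid bodies, had 10.6, 3.39 and 11.7 CPM at 24 h, against 0.112, 0.132 and 0.0325 CPM at 0 h (6.56 ± 0.89, edgeR adjusted p = 0.000124). RAB18 (AT5G66400), a dehydrin, had 6.40, 5.22 and 15.7 CPM at 24 h, against 0.727, 0.790 and 1.23 CPM at 0 h (3.21 ± 0.64, edgeR adjusted p = 0.00161; call lost without all libraries numbered 3). LEA7 (AT1G52690) was called at 3.92 ± 0.86, at under 1 CPM in each of the 6 libraries compared, and EM1 (AT3G51810), at 0 reads at 0 h, was also called higher, lost in 2 and 5 alternatives. RD20 and RAB18 lay wholly above their 0 h libraries, whereas the cold- and drought-regulated genes KIN2, RD22 and COR15A lay wholly below theirs. KIN2 (AT5G15970) had 27.4, 36.9 and 34.0 CPM at 24 h, against 115, 181 and 164 CPM at 0 h (-2.20 ± 0.27, edgeR adjusted p = 6.22e-05). RD22 (AT5G25610), a drought-induced BURP-domain protein, had 49.2, 70.1 and 87.8 CPM at 24 h, against 330, 358 and 896 CPM at 0 h (-2.84 ± 0.32, edgeR adjusted p = 4.12e-05). COR15A (AT2G42540), which stabilises chloroplast membranes, had 1.55, 1.66 and 2.09 CPM at 24 h, against 9.06, 15.5 and 18.4 CPM at 0 h (-2.95 ± 0.54, edgeR adjusted p = 0.000895).

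The 2 h libraries of the same line show the same list at another level. Against the same 0 h libraries all 25 genes rose at 2 h, beside 10.3% of all genes tested that rose and 7.69% that fell, with a median of 3.38. The filter on low counts used all 18 libraries, those at 2 h included, and passed all 25 genes listed. With only the 6 libraries at 24 h and 0 h it passed 20, so some may have passed through their 2 h level. KIN2 lay at 2.50, RD22 at 1.27 and COR15A at 3.02 at 2 h, and all 3 lay below 0 at 24 h. COR47 (AT1G20440), a dehydrin, lay at 2.63 at 2 h and at 0.25 ± 0.29 at 24 h (edgeR adjusted p = 0.524). RD29A (AT5G52310), the classic reporter of dehydration, had 226, 1273 and 2019 CPM at 2 h and 17.2, 20.7 and 15.9 CPM at 24 h, with 24.5, 98.9 and 88.3 CPM at 0 h. Its fall at 24 h was called at -1.54 ± 0.56 (edgeR adjusted p = 0.042) and the call was lost in 8 alternatives. The 8 rises of the list at 24 h became 3 without 0 h replicate 3, 5 without 24 h replicate 1, 5 without all libraries numbered 1 and 1 without those numbered 3, and the 6 falls became 3 without the block.

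**Figure D3:**
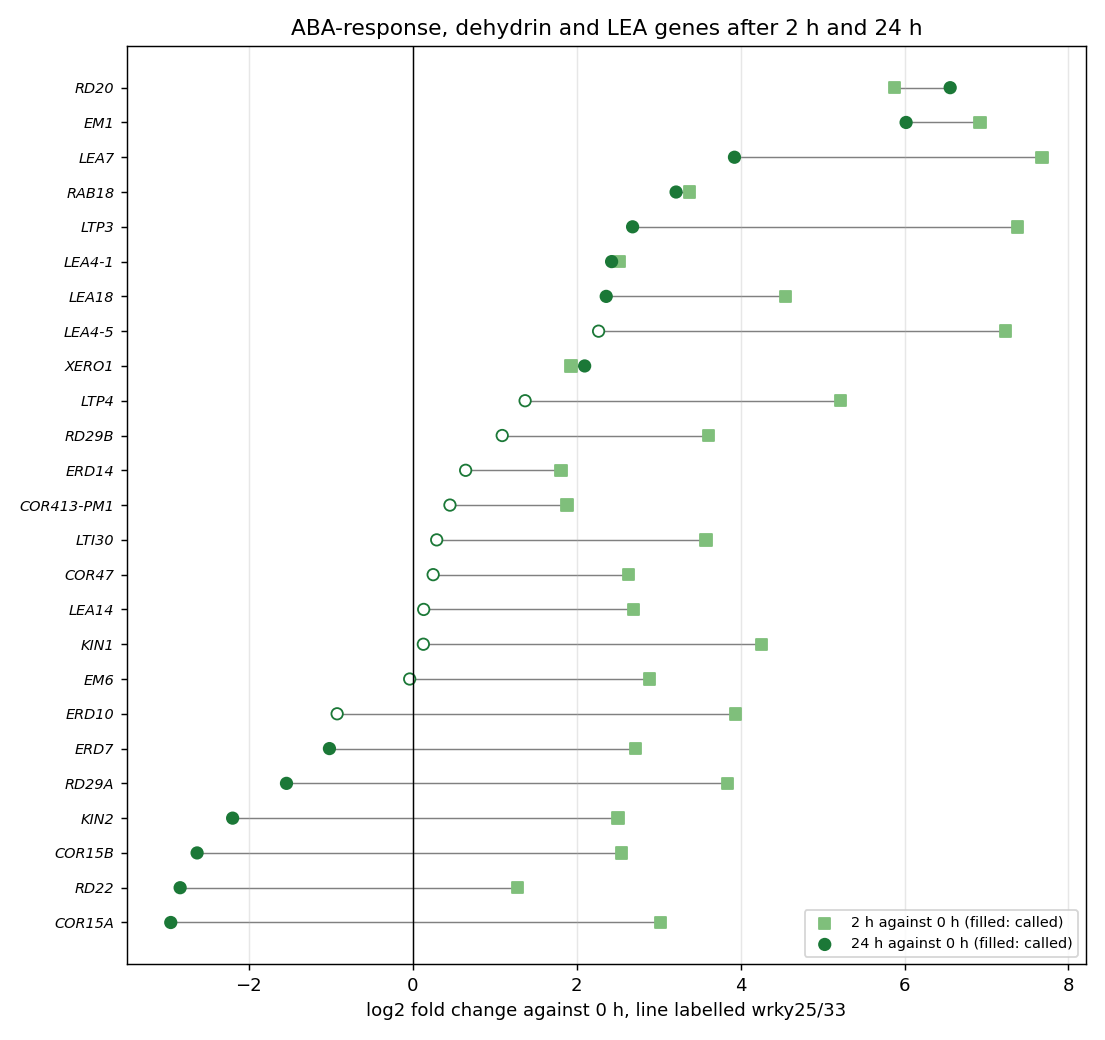
Log2 fold change against 0 h of the 25 ABA-response, dehydrin and LEA genes in the labelled line after 2 h (squares) and 24 h (circles), filled where edgeR called the gene; both use the same 0 h libraries. At 2 h all 25 are filled and above 0, and at 24 h 8 are filled above 0 and 6 below. The filter on low counts used the 2 h libraries too. EM1 had no read at 0 h, so its position depends on the fit.

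Pumps and water channels of the cell and vacuole membranes changed too. AVP1 (AT1G15690), the vacuolar proton pump that energises sodium storage, had 1403, 1235 and 2005 CPM at 24 h, against 636, 520 and 794 CPM at 0 h (1.25 ± 0.17, edgeR adjusted p = 0.000148). AHA2 (AT4G30190), a plasma membrane proton pump, had 162, 153 and 187 CPM at 24 h, against 306, 329 and 587 CPM at 0 h (-1.21 ± 0.27, edgeR adjusted p = 0.00343). Neither gene's groups overlapped, a condition by which both were chosen. Of 17 tested sodium and potassium transport genes 5 rose (29.4%) and 2 fell (11.8%), beside 18.4% and 17.9% of all genes, with a median of 0.19. The 5 rises became 2 without 0 h replicate 3, 3 without all libraries numbered 1 and 2 without those numbered 3. The 2 falls became 1 without 0 h replicate 1, 24 h replicate 1, 24 h replicate 2 or all libraries numbered 1 or 2. NHX1 (AT5G27150), a vacuolar sodium antiporter, was among the 5 at 0.41 ± 0.14, a call lost in 9 alternatives. GORK (AT5G37500), an outward potassium channel, and SOS3 (AT5G24270), a calcium sensor of salt tolerance, were called at 2.13 ± 0.59 and 1.14 ± 0.31, each lost in 2.

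Of 18 tested aquaporins 10 rose and 2 fell, with a median of 0.86, and 7 rose without the block. TIP1;2 (AT3G26520), of the vacuole membrane, had 607, 695 and 619 CPM at 24 h, against 234, 150 and 169 CPM at 0 h (1.84 ± 0.21, edgeR adjusted p = 4.12e-05). PIP1;2 (AT2G45960), of the plasma membrane, had 1065, 1177 and 1319 CPM at 24 h, against 542, 374 and 455 CPM at 0 h (1.40 ± 0.15, edgeR adjusted p = 2.99e-05). PIP1;1 (AT3G61430) rose by 1.26 ± 0.18 and TIP2;1 (AT3G16240) by 1.12 ± 0.21. All 4 had 24 h libraries above every 0 h library, as did 10 of the 18 tested, beside 19.9% of all genes. PIP2;8 (AT2G16850) was called at -1.46 ± 0.50, a call lost in 7 alternatives. The 10 rises became 6 without all libraries numbered 2 and 6 without those numbered 3, and the 2 falls became 1 or none without the block, 0 h replicate 1, 0 h replicate 3, 24 h replicate 3 or all libraries numbered 1 or 3.

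Glutathione transferases and catalases, which handle reactive compounds and peroxide, held called rises. Of 14 tested glutathione transferases, which attach glutathione to toxic molecules, 8 rose and 1 fell, with a median of 1.07, and 6 to 8 rose without any single library. GSTU24 (AT1G17170) had 73.3, 54.5 and 118 CPM at 24 h, against 6.26, 10.8 and 7.31 CPM at 0 h (3.31 ± 0.49, edgeR adjusted p = 0.000229), GSTF3 (AT2G02930) rose by 2.31 ± 0.46 and GSTU19 (AT1G78380) by 1.28 ± 0.24. GSTU25 (AT1G17180) and GSTU1 (AT2G29490) were called at 4.11 ± 0.93 and 2.52 ± 0.56, lost in 1 and 2 alternatives. GSTU17 (AT1G10370) was the 1 member that fell, to 44.3, 51.4 and 48.6 CPM at 24 h against 186, 149 and 212 CPM at 0 h (-1.91 ± 0.31, edgeR adjusted p = 0.000442). The 8 rises became 5 without all libraries numbered 1 or without those numbered 3. All 3 catalases, the peroxisomal enzymes that destroy hydrogen peroxide, rose, CAT3 (AT1G20620) by 1.28 ± 0.20, CAT1 (AT1G20630) by 1.20 ± 0.18 and CAT2 (AT4G35090) by 0.99 ± 0.19. CAT2 had 5254, 4298 and 5716 CPM at 24 h, against 3240, 2574 and 1952 CPM at 0 h, with no overlap. RBOHC (AT5G51060), an NADPH oxidase of root hairs, was called at -2.03 ± 0.50, lost in 2 alternatives. Over the whole redox list 5 of 13 tested genes rose and 3 fell, with a median of 0.49. The 5 rises became 3 without all libraries numbered 3, and the 3 falls became none without the block and 1 without 0 h replicate 1, 0 h replicate 2, 24 h replicate 1, 24 h replicate 3 or all libraries numbered 1 or 2.

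**Figure D4:**
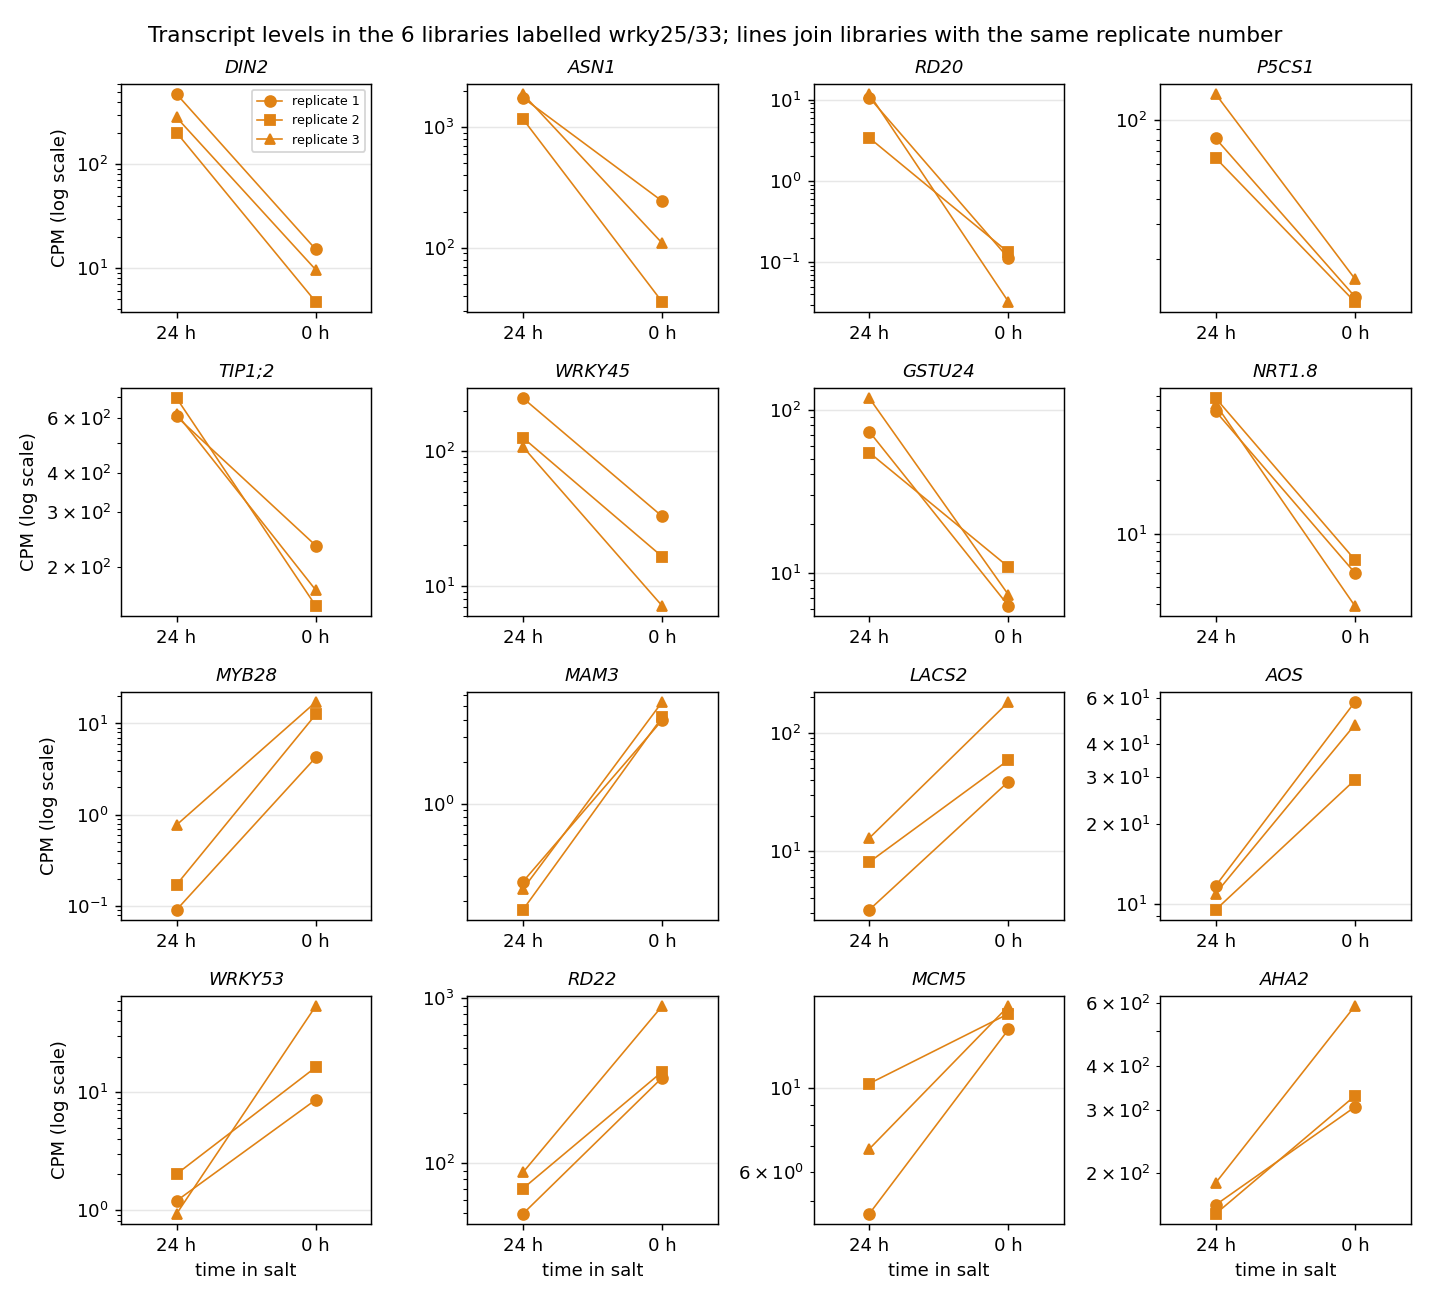
Level in CPM (log scale) of 16 genes in the labelled line at 24 h and 0 h; each line joins the libraries with the same replicate number. All 3 lines run downward to the right in DIN2, ASN1, RD20, P5CS1, TIP1;2, WRKY45, GSTU24 and NRT1.8 (higher at 24 h) and upward in MYB28, MAM3, LACS2, AOS, WRKY53, RD22, MCM5 and AHA2 (lower at 24 h). Most of these genes were named on condition that their groups do not overlap, so the shared direction is no further result.

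Cell division transcripts moved in one direction. Of 26 tested cell cycle and DNA replication genes 18 fell and none rose, beside 17.9% of all genes, with a median of -1.25. CYCB1;4 (AT2G26760), a mitotic cyclin, had 0, 0.287 and 0.291 CPM at 24 h, against 0.671, 1.62 and 1.66 CPM at 0 h (-2.95 ± 0.64, edgeR adjusted p = 0.00287). CYCB1;2 (AT5G06150) and CYCA1;1 (AT1G44110), also cyclins, were called at -3.03 ± 0.82 and -2.78 ± 0.73, and the mitotic kinase CDKB1;1 (AT3G54180) at -1.92 ± 0.49, lost in 4, 2 and 2 alternatives. MCM5 (AT2G07690), a subunit of the replicative helicase, had 4.63, 10.3 and 6.89 CPM at 24 h, against 14.3, 15.8 and 16.5 CPM at 0 h (-1.17 ± 0.27, edgeR adjusted p = 0.00448; call lost without all libraries numbered 1). The other subunits MCM2, MCM3, MCM4, MCM6 and MCM7 were each called at between -0.61 and -1.28, and each call was lost in 3 or more alternatives. In all 6 subunits replicate 2 had the highest value of the 24 h libraries. The number of falls in the list depended on the libraries: 5 without the block, 11 without 0 h replicate 1, 10 without 0 h replicate 3, 9 without 24 h replicate 1, 3 without all libraries numbered 1 and 7 without those numbered 3.

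Wall-loosening enzymes were divided between the directions. Of 21 tested expansins and xyloglucan endotransglucosylases (XTH) 3 rose and 7 fell, with a median of -0.18. XTH24 (AT4G30270) had 3009, 1901 and 3636 CPM at 24 h, against 1002, 275 and 562 CPM at 0 h (2.38 ± 0.31, edgeR adjusted p = 9.15e-05). EXPA10 (AT1G26770) rose by 1.98 ± 0.40, and the touch-induced XTH22 (AT5G57560) by 1.76 ± 0.41, a call lost without the block and without all libraries numbered 1. EXPA5 (AT3G29030) fell, to 0.366, 0.459 and 1.21 CPM at 24 h against 1.68, 3.86 and 7.70 CPM at 0 h (-2.66 ± 0.52). EXPA6 (AT2G28950) was called at -2.02 ± 0.56, lost in 4 alternatives. The 7 falls became 4 without the block, 3 without 0 h replicate 3, 3 without 24 h replicate 1, 4 without 24 h replicate 3, and 2 and 3 without all libraries numbered 1 and 3.

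Wax seals the shoot surface. Of 8 tested cuticular wax genes 6 fell and none rose, with a median of -1.50, and 3 fell without all libraries numbered 1. LACS2 (AT1G49430), an acyl-CoA synthetase of cuticle formation, had 3.20, 8.10 and 12.9 CPM at 24 h, against 38.7, 58.8 and 181 CPM at 0 h (-3.43 ± 0.44, edgeR adjusted p = 8.67e-05). CER3 (AT5G57800), of wax alkane synthesis, had 102, 113 and 143 CPM at 24 h, against 314, 279 and 439 CPM at 0 h (-1.51 ± 0.23, edgeR adjusted p = 0.000285), and LTPG1 (AT1G27950), a lipid transfer protein of the cuticle, fell by 1.62 on the log2 scale (SE 0.33). All 3 lay wholly below their 0 h libraries, as did 6 of the 8 tested, beside 20.2% of all genes. CER2 (AT4G24510), of fatty acid elongation for wax, was called at -2.15 ± 0.64, lost in 6 alternatives.

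Of 13 tested suberin genes, which seal the root endodermis and periderm, 6 rose and 3 fell, with a median of 0.61. CYP86A1 (AT5G58860), the fatty acid hydroxylase of root suberin, had 2.35, 6.20 and 12.95 CPM at 24 h, against 0.391, 0.307 and 0.617 CPM at 0 h (3.89 ± 0.47, edgeR adjusted p = 6.04e-05). ABCG6 (AT5G13580), a transporter of suberin precursors, rose by 3.34 ± 0.61. KCS1 (AT1G01120), a fatty acid elongase of wax as well as suberin, fell to 16.9, 22.7 and 40.6 CPM at 24 h, against 129, 117 and 188 CPM at 0 h (-2.48 ± 0.37, edgeR adjusted p = 0.000254). The 6 rises became 2 without all libraries numbered 3. When only the 6 libraries compared were fitted, 8 genes of the list were tested, 2 rose and 3 fell, and the median turned to -0.18. CYP86B1 (AT5G23190) and FAR4 (AT3G44540), enzymes of suberin monomers, were called at 3.71 ± 0.89 and 3.25 ± 0.77, each lost in 1 alternative.

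Genes of the photosynthetic machinery, which also mark green tissue, moved little but mostly upward. Of 34 tested photosystem and light-harvesting genes 15 rose and 2 fell, with a median of 0.29, and their summed level was 72346 to 94966 CPM at 24 h and 57184 to 67946 CPM at 0 h. LHCB1.3 (AT1G29930), a chlorophyll-binding antenna protein, had 25472, 24828 and 16467 CPM at 24 h, against 13575, 13447 and 11246 CPM at 0 h (0.78 ± 0.12, edgeR adjusted p = 0.000268). Its near-identical neighbour LHCB1.2 (AT1G29910) was called the other way at -0.63 ± 0.17, a call lost without the block and without all libraries numbered 2 or 3, and reads may be divided between such copies. LHCB1.4 (AT2G34430) and LHCB2.1 (AT2G05100) were called at 1.12 ± 0.27 and 0.65 ± 0.19, lost in 1 and 3 alternatives. The 15 rises became 5 without the block, 8 without 0 h replicate 1, and 4, 9 and 7 without all libraries numbered 1, 2 and 3. The 2 falls became none without the block and 1 without 0 h replicate 1, 0 h replicate 3, 24 h replicate 1 or 24 h replicate 3. Of 9 tested Rubisco and Calvin cycle genes 2 rose, at 0.46 ± 0.12 for RBCS1A and 0.56 ± 0.11 for GAPA, with a median of 0.12, and neither was called without the block, nor RBCS1A without all libraries numbered 1 or 3.

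Markers of other tissues were few and low in these libraries. Of 8 tested stomatal lineage genes 2 were called lower, SPCH and EPF2 at -0.94 ± 0.28 and -1.01 ± 0.34, and both calls were lost without the block, 0 h replicate 3, 24 h replicate 1 or 24 h replicate 3. Their summed level was 23.6 to 42.6 CPM at 24 h and 29.6 to 43.5 CPM at 0 h. Of 5 tested xylem markers 3 were called higher, none of them with groups free of overlap. None was called without the block, and 1 was called without 0 h replicate 3, 24 h replicate 2 or all libraries of any 1 number. The list's median was 0.34, 1.89 and 1.10 in the replicate pairs 1, 2 and 3. Their summed level was 7.19 to 26.3 CPM at 24 h and 5.81 to 13.2 CPM at 0 h. Only 3 of 15 root hair markers and 2 of 11 seed storage markers passed the filter on low counts, and of the first RHS10 (AT1G70460) was called at -1.60 ± 0.45, lost in 6 alternatives. The seed storage gene CRU1, named after its values were seen, had 6.86, 0.344 and 0.0485 CPM at 24 h, so that 1 library held most of its reads. No seed storage gene was called, and 4 were called higher without 24 h replicate 2. The part of these markers in the results above was not tested.

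Within the WRKY family itself, 14 of 53 tested genes rose (26.4%) and 13 fell (24.5%), beside 18.4% and 17.9% of all genes, with a median of 0.12. WRKY45 (AT3G01970), known from phosphate uptake and leaf ageing, had 248, 126 and 108 CPM at 24 h, against 32.8, 16.5 and 7.08 CPM at 0 h (3.23 ± 0.33, edgeR adjusted p = 2.33e-05). WRKY53 (AT4G23810), which responds to pathogens and early senescence, had 1.19, 2.01 and 0.922 CPM at 24 h, against 8.61, 16.3 and 53.9 CPM at 0 h (-3.94 ± 0.63, edgeR adjusted p = 0.000353). WRKY17 (AT2G24570), a repressor of basal defence, fell by 1.67 on the log2 scale (SE 0.23), and WRKY26 (AT5G07100), a close relative of WRKY25 and WRKY33, rose by 1.20 ± 0.19, a call lost without the block. WRKY75 (AT5G13080), known from senescence and phosphate stress, was called at 1.70 ± 0.42 and WRKY29 (AT4G23550), of immune signalling, at -2.20 ± 0.35, lost in 2 and 1 alternatives. WRKY18 fell within the labelled line too, to 4.45, 5.63 and 5.82 CPM at 24 h against 8.95, 13.1 and 16.6 CPM at 0 h (-1.26 ± 0.29, edgeR adjusted p = 0.00381). WRKY40 overlapped between the times and was not called (0.70 ± 0.71, edgeR adjusted p = 0.468). The 14 rises became 7 without the block, 9 in 1 strand column, 8 without 0 h replicate 3, and 6 and 8 without all libraries numbered 1 and 3. The 13 falls became 6 without the block, 8 without 0 h replicate 3, 8 and 7 without 24 h replicates 2 and 3, and 7 without all libraries numbered 3.

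Jasmonate is a hormone of wounding and defence. Of 18 tested jasmonate genes 1 was called higher, 5 fell and 12 did neither, with a median near 0, and 4 of the falls were in genes of synthesis. The fifth was JAZ1 (AT1G19180), a repressor of jasmonate response, at -1.17 ± 0.26, and the 1 rise, JAZ7 (AT2G34600) at 1.42 ± 0.49, lost its call in 10 alternatives. AOS (AT5G42650), which makes the first committed intermediate of jasmonate, had 11.7, 9.47 and 10.9 CPM at 24 h, against 57.8, 29.3 and 47.4 CPM at 0 h (-2.06 ± 0.37, edgeR adjusted p = 0.000894). LOX3 (AT1G17420), the lipoxygenase a step before it, fell by 1.44 on the log2 scale (SE 0.33). The cyclases AOC2 and AOC3, which act after it and are near-identical copies, were called at -1.42 and -2.18. Of 19 tested ethylene genes 3 rose (15.8%) and 4 fell (21.1%), shares near those of all genes (18.4% and 17.9%), with a median of -0.87. ACS7 (AT4G26200), an ethylene synthesis enzyme, had 43.7, 37.0 and 55.2 CPM at 24 h, against 84.3, 88.8 and 243 CPM at 0 h (-1.47 ± 0.31, edgeR adjusted p = 0.00245). ACS2 (AT1G01480) and ACO4 (AT1G05010), also of ethylene synthesis, were called at 1.57 ± 0.53 and 0.86 ± 0.23, lost in 8 and 3 alternatives. The response factor ERF4 (AT3G15210) had 9.54, 9.19 and 10.4 CPM at 24 h, against 18.5, 13.7 and 102 CPM at 0 h, with replicate 3 far above the other 0 h libraries, and its call at -1.66 ± 0.49 was lost without that library and in 5 other alternatives. The 4 ethylene falls became 2 without the block, 1 without 0 h replicate 3, 2 without 24 h replicate 3, 7 in 1 strand column, and 2 and 1 without all libraries numbered 1 and 3. The 3 rises became 1 without the block and 1 without 24 h replicate 2.

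Of 11 tested salicylic acid genes 4 fell and none rose, with a median of -0.71, and the 4 became 2 without the block, without 0 h replicate 3, without 24 h replicate 3 and without each replicate number. ICS1 (AT1G74710), the main source of salicylic acid under attack, had 7.62, 11.1 and 9.75 CPM at 24 h, against 13.5, 29.8 and 17.8 CPM at 0 h (-1.05 ± 0.21, edgeR adjusted p = 0.00144), with no overlap, a condition of its choice. EDS1 (AT3G48090), a hub of immunity, was called at -0.87 ± 0.21, lost in 1 alternative. AZF1 (AT5G67450), a zinc finger repressor of ABA and jasmonate response, fell to between 0.534 and 1.43 CPM at 24 h, against 3.69 to 13.4 CPM at 0 h (-3.01 ± 0.48, edgeR adjusted p = 0.000352). It belongs to a list of 27 stress NAC, DREB, zinc finger and MYB factors of which 10 rose and 3 fell, with a median of 0.75. MYB102 (AT4G21440), at under 2 CPM in each of the 6 libraries compared, and NAC019 (AT1G52890), of ABA response, were called at 5.19 ± 1.73 and 2.54 ± 0.77, lost in 8 and 5 alternatives. Those 10 became 4 without the block, 6 without 0 h replicate 2, 5 without 0 h replicate 3, 5 without 24 h replicate 1 and 5 without all libraries numbered 3, and the 3 falls became 1 without 0 h replicate 3, 24 h replicate 3 or all libraries numbered 3 and 5 without those numbered 2.

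Glucosinolates and camalexin are sulfur compounds of defence, and the genes called in the lists that cover them were mostly lower. MYB28 (AT5G61420), the master regulator of aliphatic glucosinolates, had 0.0914, 0.172 and 0.776 CPM at 24 h, against 4.25, 12.5 and 17.2 CPM at 0 h (-5.00 ± 0.68, edgeR adjusted p = 0.000132). MAM3 (AT5G23020), a chain-elongating enzyme of the same pathway, had 0.274, 0.172 and 0.243 CPM at 24 h, against 3.97, 4.17 and 5.36 CPM at 0 h (-4.21 ± 0.47, edgeR adjusted p = 4.08e-05). Of 8 tested genes of the pathway 4 fell, with a median of -0.60, and 2 fell in 1 strand column. The sulfotransferase SOT18 (AT1G74090) was called higher at 0.55 ± 0.19, a call lost in 10 alternatives, and UGT74C1 (AT2G31790), a glucosyltransferase, at -0.58 ± 0.13, lost in 2. MAM1, a near-identical neighbour of MAM3, was also called, at under 1 CPM. In the list of camalexin and indole glucosinolate genes 3 of 10 tested fell and none rose, with a median of -0.68. All 3, named next, are on the glucosinolate side of the list. MYB34 (AT5G60890), a regulator of indole glucosinolates, had 2.65, 2.76 and 2.81 CPM at 24 h, against 4.19, 8.73 and 5.56 CPM at 0 h (-1.12 ± 0.20, edgeR adjusted p = 0.00093). CYP83B1 (AT4G31500) and SUR1 (AT2G20610), enzymes of the glucosinolate core, were called at -1.10 ± 0.36 and -0.67 ± 0.18, lost in 6 and 5 alternatives. The 3 became 1 without 0 h replicate 3, without 24 h replicate 3 and without all libraries numbered 3. Of 9 tested flavonoid genes 5 fell and none rose, with a median of -1.08. CHS (AT5G13930), the entry enzyme of the pathway, had 9.94, 46.0 and 27.3 CPM at 24 h, against 48.5, 113 and 53.7 CPM at 0 h (-1.41 ± 0.36, edgeR adjusted p = 0.00722), a call lost without the block. PAP2 (AT1G66390) and TT8 (AT4G09820), regulators of anthocyanin synthesis at low levels, were called at -4.38 ± 0.98 and -2.53 ± 0.88, lost in 1 and 8 alternatives. The 5 became 2 without the block, 2 when only the 6 libraries compared were fitted and 3 without all libraries numbered 2.

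Among nutrient genes the largest change was in a transporter. NRT1.8 (AT4G21680), which takes nitrate out of the xylem sap and is known from stress, had 49.1, 58.3 and 53.8 CPM at 24 h, against 6.04, 7.15 and 3.93 CPM at 0 h (3.23 ± 0.37, edgeR adjusted p = 4.53e-05). The nitrogen list held 3 rises and 3 falls in 10 tested genes, with a median of -0.02, and the falls became none without the block or without 24 h replicate 2, and 1 without any 0 h library, 24 h replicate 1 or all libraries numbered 2. NRT1.5 (AT1G32450), which loads nitrate into the xylem, was called at 1.46 ± 0.34, NRT2.1 (AT1G08090), a high-affinity nitrate transporter, at -2.53 ± 0.85, and ASN2 (AT5G65010) at -0.68 ± 0.24, lost in 1, 9 and 8 alternatives. The iron list held 2 rises in 14, the phosphate list 2 rises and 1 fall in 6, and the sulfur list 2 falls in 10, and each of these counts reached 1 or 0 without some single library. The iron rises (14.3%) and sulfur falls (20%) were near the shares of all genes, 18.4% and 17.9%. The iron genes were FER1 (AT5G01600), a ferritin, at 1.45 ± 0.47 and BTS (AT3G18290), a ubiquitin ligase of iron sensing, at 0.95 ± 0.23, lost in 6 and 1 alternatives. The phosphate genes were PAP17 (AT3G17790) at 1.37 ± 0.45, SRG3 (AT3G02040) at 0.90 ± 0.30 and PHT1;4 (AT2G38940) at -0.96 ± 0.31, lost in 9, 10 and 8. The sulfur genes were SULTR1;2 (AT1G78000), a root sulfate transporter, at -1.60 ± 0.44 and SDI2 (AT1G04770) at -2.57 ± 0.69, lost in 5 and 2. Of auxin genes GH3.6 (AT5G54510) and GH3.5 (AT4G27260), which conjugate the hormone to amino acids, rose by 2.00 ± 0.31 and 1.54 ± 0.22. PIN7 (AT1G23080), an auxin efflux carrier, fell to 0.914, 1.61 and 1.16 CPM at 24 h, against 2.63, 4.12 and 6.30 CPM at 0 h (-1.79 ± 0.24, edgeR adjusted p = 0.000118). PIN3 (AT1G70940), a related carrier, was called at -0.88 ± 0.24, lost in 5 alternatives. In the auxin list 2 of 10 tested genes rose and 2 fell, shares near those of all genes (18.4% and 17.9%). Of its genes 1 fell without the block, 0 h replicate 3, 24 h replicate 1 or all libraries numbered 1 or 3. In the cytokinin list 5 of 11 rose, and none did without the block, 0 h replicate 3 or all libraries numbered 1 or 3. Without 0 h replicate 1 or 24 h replicate 3 there was 1, without 0 h replicate 2, 24 h replicate 1 or all libraries numbered 2 there were 3, and in 1 strand column 2. The response regulators ARR6 (AT5G62920), ARR16 (AT2G40670), ARR7 (AT1G19050) and ARR4 (AT1G10470) were called at 1.29 ± 0.42, 1.23 ± 0.37, 0.80 ± 0.27 and 0.67 ± 0.18, lost in 7, 8, 9 and 5 alternatives. Of 5 tested gibberellin and brassinosteroid genes 1 was called higher and 1 lower (20% each), near the shares of all genes (18.4% and 17.9%), with a median of -0.25. GA2OX6 (AT1G02400), which inactivates gibberellin, was called at -1.99 ± 0.41, lost in 1 alternative.

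Of 15 tested clock genes 7 rose and none fell, with a median of 0.51. PRR7 (AT5G02810), a morning and midday repressor of the clock, had 437, 271 and 312 CPM at 24 h, against 200, 117 and 112 CPM at 0 h (1.26 ± 0.22, edgeR adjusted p = 0.00071). The clock components PRR5 (AT5G24470), ZTL (AT5G57360) and ELF3 (AT2G25930) were called at 0.93 ± 0.29, 0.51 ± 0.15 and 0.37 ± 0.13, lost in 6, 6 and 8 alternatives. The 7 became 1 without the block, 2 and 1 without 0 h replicates 1 and 3, 4 and 3 without 24 h replicates 1 and 2, and 2 and 1 without all libraries numbered 1 and 3. Of 17 tested heat shock factors and chaperones 1 rose and 4 fell, with a median of -0.66, and 2 fell without the block. The heat shock factor HSFA6B (AT3G22830) was the 1 called higher, at 2.33 ± 0.44 with overlapping groups, a call lost without the block. HSP90.1 (AT5G52640), an inducible chaperone, had 44.4, 22.1 and 39.1 CPM at 24 h, against 168, 72.5 and 167 CPM at 0 h (-1.93 ± 0.36, edgeR adjusted p = 0.00112), and HSP101 (AT1G74310), a disaggregase, fell by 1.43 on the log2 scale (SE 0.34).

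Outside the lists the files give identifiers without names. The genes with the largest rises and falls among those at 5 CPM or more included AT3G44300, with 885, 524 and 710 CPM at 24 h and a rise of 6.27 ± 0.58, and AT5G39520, with a rise of 6.08 ± 0.74. Among the largest falls were AT1G61255 at -6.67 ± 0.51 and AT5G41900 at -5.40 ± 0.61.

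Col-0 was set beside the labelled line to show where the line differs. Col-0 had 3612 genes higher (18.7%) and 3283 lower (17%) at 24 h than at its own 0 h, 35.7% in all. Without the block the counts were 2006 and 1610, with only the 6 Col-0 libraries fitted 1262 and 1006, without its 24 h replicate 2, which stands apart, 4070 and 4231, and without its 24 h replicate 3 2551 and 1944. Of the genes that rose in the labelled line 2946 also rose in Col-0, which is 82.7% of the labelled line's and 81.6% of Col-0's. Of those that fell 2513 were shared, 72.7% of the labelled line's and 76.5% of Col-0's, and 0 and 1 genes were called in opposite directions. These shares of the labelled line's rises and falls were 81.3% and 67.2% without the block, and 84.4% and 79.4% without Col-0 24 h replicate 2. They were 62.6% and 46.4% without Col-0 24 h replicate 3, and 39.1% and 32%, over genes tested in both fits, when each line's 6 libraries were fitted alone. The test of the difference itself, the interaction of line and time, called 0 genes with edgeR and 0 with DESeq2. At an unadjusted p below 0.05 it held 346 and 369 of 19316 genes, a smaller share than the 0.05 that would arise with no difference. The SE of that difference had a median of 0.28 on the log2 scale, against 0.20 for the change within the labelled line, so small differences were not detectable. Larger differences in single genes went uncalled too, as for SAG13 below, so 0 calls do not show that the lines changed alike.

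Several genes with large changes moved in Col-0 too, though DIN1 did so less in Col-0 replicate 2. Col-0 changes of the other named genes, some of them larger, are not given here. DIN1 had 3696, 142 and 2490 CPM in Col-0 at 24 h, against 218, 82.4 and 171 CPM at 0 h, a log2 fold change of 3.43 beside 3.56 in the labelled line, and of 4.04 without that replicate. P5CS1 lay at 2.72 in the labelled line and 2.61 in Col-0, LACS2 at -3.43 and -3.61, WRKY53 at -3.94 and -3.97, and NRT1.8 at 3.23 and 3.35. SAG13 lay at 3.49 in the labelled line and 5.20 in Col-0, where it had 1.52, 0.788 and 2.43 CPM at 0 h. Its 0 h libraries in the labelled line lay above those of Col-0, and the difference in change had an edgeR adjusted p of 1. Among lists with at least 5 tested genes the sulfur genes had the most unlike medians, -1.43 in the labelled line and 0.19 in Col-0, with no gene of the list called different.

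**Figure D5:**
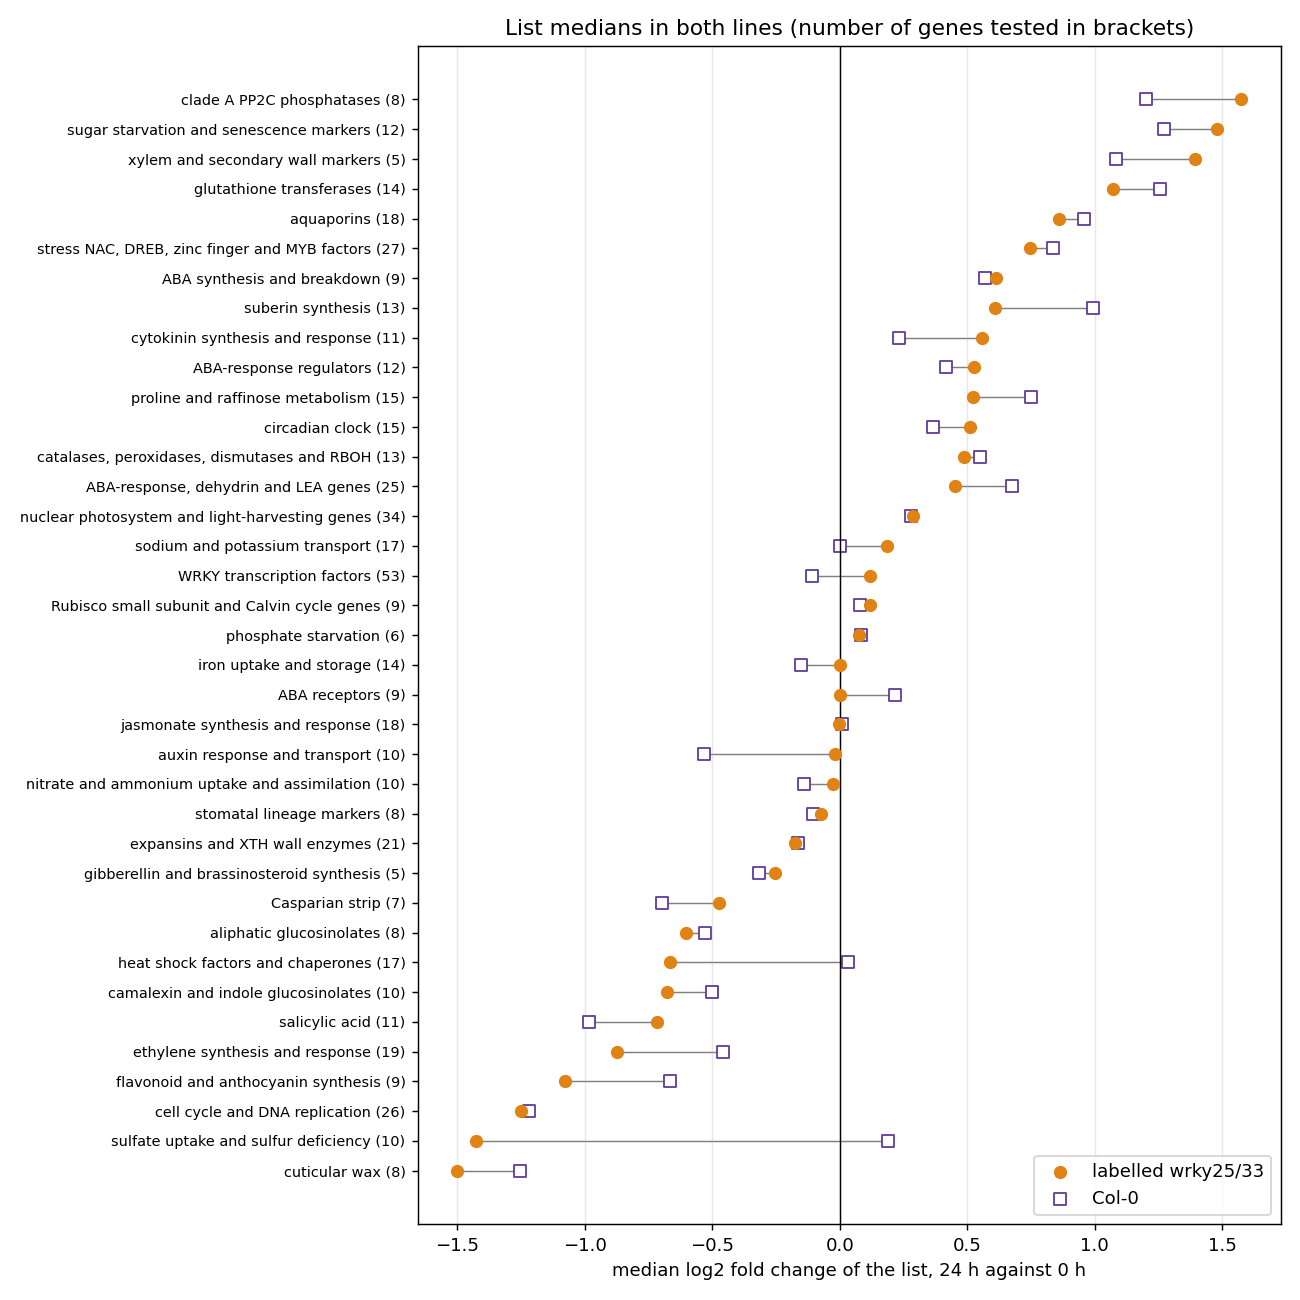
Median log2 fold change at 24 h against 0 h of each list with at least 5 tested genes, in the labelled line (filled circles) and in Col-0 (open squares). Most pairs lie close together, as for cell cycle genes (-1.25 and -1.22), and the sulfur list is widest apart (-1.43 and 0.19).

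The Arabidopsis time course of the same series, with other Col-0 seedlings and 2 libraries per time, gave fewer calls at 24 h: 993 genes higher (6.45%) and 947 lower (6.15%) of 15407 tested. Of 2535 genes that rose in the labelled line and were tested there 64.5% had a log2 fold change above 0, as did 52.3% of all 13671 genes tested in both, and 310 were called the same way and 87 the opposite way. Of 2476 that fell 62.7% lay below 0 there, with 312 calls the same way and 188 the opposite way. In the time course 7 starvation markers were tested, with 0 calls and a median of 0.06, photosystem genes had 0 higher and 5 lower with a median of -0.54, and aquaporins 0 higher and 2 lower with a median of -0.51. ABA-response and dehydrin genes had 9 higher and none lower of 21 there, with a median of 1.29. P5CS1 lay at 1.73 in the time course, GSTU24 at 2.16, CYP86A1 at 3.36 and PIN7 at -2.18, each called in the direction seen in the labelled line. KIN2 lay at 1.29, RD22 at 1.30 and COR15A at 5.37 in the time course, each called higher and so opposite to the labelled line. Col-0 in the labelled line's own experiment had 9 higher and 5 lower in the ABA-response and dehydrin list. It had 9 and 0 among starvation markers, 14 and 2 among photosystem genes and 10 and 2 among aquaporins. Medians of the starvation, photosystem and aquaporin lists were higher in both lines of that experiment than in the time course, and that of the ABA-response list was lower. The experiments differ in libraries per time and in genes tested, with 12 starvation markers tested in that experiment against 7. Their counts and medians are therefore not on one scale. Expected counts of the time course and counts of the labelled line were fitted apart, and no test of the difference between the experiments was made.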

How the data were processed

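RNA libraries of seedlings were sequenced, per the labels' protocols, after extraction with a plant RNA kit and standard Illumina preparation. STAR and the TAIR10 genome are named in the submitters' processing notes; no version, annotation or counting setting is stated in the labels. The authors deposited 1 sheet of raw counts per library, each with 3 columns, for reads on both strands together and on either one, below 4 lines of totals. The first column was used, and the totals, which name no gene, stayed out of library sizes and tests. For the time course the authors deposited expected counts, of which 1.42% were not whole; they were rounded.

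All 18 libraries of the experiment were fitted with edgeR 4.0.16 (limma 3.58.1, R 4.3.3): filterByExpr, TMM, 1 coefficient per group plus the replicate number as block, quasi-likelihood tests, two-sided, Benjamini-Hochberg over the 19316 genes tested of 34218. Genes below an adjusted p of 0.05 were called. SEs were taken from the fold change and its F statistic. The block is called Batch in the deposited condition sheet. Deviations from the group means correlated between 24 h and 0 h libraries of the same number (0.401, 0.191 and 0.396), least for number 2. Deviations of 3 libraries sum to 0 within a group, so these values are not independent and do not alone establish pairing. The time course was fitted apart without a block. No 2 libraries were identical. The pipeline was tested on simulated data.

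The members and the 39 lists (648 genes) were chosen with earlier results of these data known. The files do not pair identifiers with names, so names come from these hand-written lists. Named genes are WRKY25 and WRKY33, up to 4 called members per list with the largest change among those whose groups do not overlap, and up to 15 rises and 15 falls over all genes at a mean of 5 CPM or more, of which 2 each are given. Lack of overlap in genes named by this rule was a condition of their choice and is no further result. One result that this rule would name is not reported here. Genes that complete a family or contrast with it (such as KIN2, RD22, COR15A, PRODH1, DIN3, DIN4, NCED3, the MCM genes, WRKY18, WRKY40 and WRKY60) were added after their values were seen. Alternatives were no block, only the libraries compared, DESeq2 1.42.0, its size factors, no filter on low counts, each strand column and leaving out each library or, added after seeing the data, each replicate number.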

Additional observations from a re-analysis of the deposited data

How the results depend on the processing

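The count of genes that rose in the labelled line was 3563 and that of genes that fell 3458. Without the replicate block they were 1942 and 1629, without 0 h replicate 3 the falls were 2155, and leaving out 1 library or 1 replicate number gave 1958 to 3034 and 1498 to 3071. In Col-0 (3612 and 3283) the counts were 2006 and 1610 without the replicate block, 1262 and 1006 when only its 6 libraries were fitted, and 2551 to 4070 and 1944 to 4231 without 1 library. Fitting only the 6 libraries of the labelled line gave 3143 and 2900, RLE size factors 3646 and 3400, no filter 3374 and 3227, the strand columns 3330 and 3231 and 3336 and 3258, and DESeq2 3898 and 3676. Of 170 genes followed one by one, 56 lost their call without the block, 45 without 0 h replicate 3, 50 without all libraries numbered 1 and 59 of 169 without those numbered 3, and none changed direction. Most were chosen as called and free of overlap, so their direction could hardly change when libraries were left out, and this is no further result. Some of the 170, such as COR47 and WRKY33, were not called at the outset and had no call to lose. The difference between the lines called 0 genes under all alternatives run. Planned counts of promoter motifs were not run, as no Arabidopsis sequence was used here. Leaving libraries out leaves fewer samples, and other causes of lost calls were not tested. Genes under 1 CPM rest on few reads, and their fold changes are the least precise.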
